A study of Mus musculus with 18 samples.

Results

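GABA, the main inhibitory transmitter of the brain, was followed in mouse hypothalamus through 5 genes that make, package, take up and break it down. The genes were Gad1, Gad2, Slc32a1, Slc6a11 and Abat, taken by name, and each was read by the brightest probeset that the platform annotation pairs with that gene alone. Each had 1 such probeset, so 5 of the 19937 genes measured are described here. The 18 whole-transcript arrays came from microdissected, frozen hypothalami of wild-type mice and of mice mutant for Wfs1, which encodes wolframin, a membrane protein of the endoplasmic reticulum. The strain is 129SV by the sample labels and 129S6 by the series text, and the labels used here give no age, sex or allele. Each array has a pair of genotype labels, an ending of the title (ko or wt) and a genotype field (KO or WT), written here as ending/field. There were 5 arrays of ko/KO, 5 of ko/WT, 4 of wt/KO and 4 of wt/WT, so the labels contradict each other on 9 of 18. Neither label is taken as the true genotype. A replicate number after a group, as in ko/KO 2, only names an array.

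Glutamate decarboxylase, encoded by Gad1 and Gad2, turns glutamate into GABA in inhibitory neurons. The Gad1 product supplies much of the cell's basal GABA, and the Gad2 product is held mainly at nerve terminals. The vesicular transporter Slc32a1 loads GABA into synaptic vesicles, the plasma membrane transporter Slc6a11, found mostly on astrocytes, clears it from the extracellular space, and the mitochondrial transaminase Abat starts its breakdown. The hypothalamus is rich in GABA neurons, among them cells that govern feeding, sleep and hormone release.

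RefSeq places Gad1, Gad2 and Slc32a1 on chromosome 2, Slc6a11 on chromosome 6 and Abat on chromosome 16. The promoter table of assembly GRCm38.p6 held 4 of the 5 genes, and Abat had no entry. The windows of Gad1 and Gad2 are shown because both genes encode the same enzyme activity, and that of Slc6a11 because its level is the one set against Gad1 and Wfs1 in the results. Each runs from 250 bases before to 50 after the start site, 5′ to 3′ on the plus strand, at chr2:70561879-70562178 for Gad1, chr2:22622077-22622376 for Gad2 and chr6:114130991-114131290 for Slc6a11. Capitals mark matches, on either strand, to TATAAA, to CCAAT and to GGGCGG.
Gad1: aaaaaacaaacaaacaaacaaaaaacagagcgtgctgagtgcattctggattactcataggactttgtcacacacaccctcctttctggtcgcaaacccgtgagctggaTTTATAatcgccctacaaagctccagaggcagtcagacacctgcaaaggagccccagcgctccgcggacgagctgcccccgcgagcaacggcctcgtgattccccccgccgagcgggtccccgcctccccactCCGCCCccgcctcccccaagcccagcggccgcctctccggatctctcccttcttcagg
Gad2: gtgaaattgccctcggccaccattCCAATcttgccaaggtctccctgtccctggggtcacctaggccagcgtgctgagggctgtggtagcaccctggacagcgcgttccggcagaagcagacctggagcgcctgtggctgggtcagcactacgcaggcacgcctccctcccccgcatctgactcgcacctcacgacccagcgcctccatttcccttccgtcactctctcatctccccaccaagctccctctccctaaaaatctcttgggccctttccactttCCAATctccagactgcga
Slc6a11: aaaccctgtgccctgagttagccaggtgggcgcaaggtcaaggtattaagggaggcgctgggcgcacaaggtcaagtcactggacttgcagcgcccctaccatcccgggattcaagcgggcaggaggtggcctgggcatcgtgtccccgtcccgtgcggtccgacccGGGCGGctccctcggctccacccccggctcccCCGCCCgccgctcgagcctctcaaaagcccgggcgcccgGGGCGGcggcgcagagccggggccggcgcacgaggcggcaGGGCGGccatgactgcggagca
The Gad1 window held 1 TATAAA match and 1 GGGCGG match, both on the minus strand, the Gad2 window 2 CCAAT matches, and the Slc6a11 window 4 GGGCGG matches. The Slc32a1 window held no match to the 3 motifs. Over 32851 promoters of the same length, 13.6% held TATAAA, 37.4% CCAAT and 35.7% GGGCGG. The windows held 21 CpG dinucleotides for Gad1, 14 for Gad2, 17 for Slc32a1 and 32 for Slc6a11, against a median of 7. The share of G and C was 60.0%, 61.3%, 63.3% and 72.3% in the same order, against a median of 52.7%. No matches overlapped, and a match describes the letters of the window only.

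The values are log2 units as deposited, and 1 unit is a 2-fold difference in signal. Array medians lay between 7.10 and 7.19, and the standard deviation (SD) of all values on an array between 1.93 and 2.04. The SD was smallest on wt/WT 2 (1.927), ko/KO 2 (1.952) and wt/WT 1 (1.955) and ran from 1.988 to 2.043 on the other 15 arrays. Xist was 5.93 on ko/WT 4 and Ttr, a choroid plexus transcript, was 12.80 on wt/WT 3, each apart from the remaining arrays. Wfs1, the gene labelled as mutated, averaged 8.30 ± 0.313 on the ko arrays by title (SD, n = 10) and 8.12 ± 0.252 on the wt arrays (SD, n = 8). By genotype field the KO arrays averaged 8.25 ± 0.350 (SD, n = 9), and KO minus WT was 0.056 (SE 0.13). Its mean on arrays labelled mutant was thus the higher by both labels, within the spread between arrays. By field the difference turned to -0.046 without the 3 arrays of smallest SD and to -0.0029 without ko/KO 1. The part of the gene that was altered is not given in the sources used here. Results that change without these arrays are given with and without them. Of 14 measured regional marker genes of the hypothalamus, 10 were above the array median on every array. So were 13 of 14 thalamic, 7 of 7 striatal and 5 of 9 cortical and hippocampal markers. This count therefore does not single out the hypothalamus. The labels do not say that each array is a separate animal, so p-values measure the spread between arrays only. In whole tissue, fewer cells of a type and less RNA per cell cannot be told apart.

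All 5 genes were well expressed and steady. Each was above the upper quartile of all values on 18 of 18 arrays, and the span from the lowest to the highest array was 1.23-fold to 1.32-fold. Levels are not compared between genes, because probesets differ in how brightly they report. Among the genes brighter than the median gene, 65.1% to 92.1% had a larger SD across arrays than these 5. The median gene had a mean of 7.60, far below the 5, and no comparison with genes of like level was made. The 5 ranged over 0.30 to 0.40 log2 units. Some other bright genes ranged as little, such as Slc1a2 (0.29) and Eno2 (0.32), and others more, such as Sst (0.72) and Aldh1a1 (1.29).

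Gad1 had levels of 11.19, 10.87, 11.05, 10.98 and 10.99 on the 5 ko/KO arrays and of 11.09, 11.08, 11.09, 11.08 and 11.06 on the 5 ko/WT arrays. It was 11.03, 11.10, 11.04 and 11.13 on the 4 wt/KO arrays and 10.98, 10.84, 11.01 and 11.13 on the 4 wt/WT arrays. The low arrays were wt/WT 2 and ko/KO 2, the high one was ko/KO 1, and the 4 groups overlapped. Where the labels contradict each other Gad1 kept within 0.10 log2 units, and where they agree it ranged over 0.35. The range was wider on the agreeing arrays for 5 of the 5 genes, and for 70.3% of all genes.

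Gad2 lay at 11.16, 10.79, 11.12, 11.14 and 11.09 on the ko/KO arrays and at 10.97, 10.97, 11.17, 11.01 and 11.05 on the ko/WT arrays. The wt/KO arrays gave 10.96, 11.07, 10.88 and 11.08, and the wt/WT arrays 11.02, 11.05 and 11.09, with wt/WT 3 at -0.050 from the median of all arrays. The single low value was ko/KO 2, with wt/KO 3 next, and all groups overlapped. Both decarboxylase genes were therefore low on ko/KO 2, whereas wt/WT 2, lowest for Gad1, stood at the Gad2 median of 11.050.

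Slc32a1 was the steadiest of the 5, with an SD of 0.073 log2 units over 18 arrays. Its levels were 9.85, 9.97, 9.99, 9.98 and 9.76 on the ko/KO arrays and 10.06, 9.94, 9.99, 9.97 and 9.89 on the ko/WT arrays. On the wt/KO arrays they were 10.01, 9.90, 9.93 and 10.02, and on the wt/WT arrays 10.01, 9.89, 9.97 and 9.88. The lowest array was ko/KO 5 and the highest ko/WT 1. Neither of the arrays low in Gad1 was the lowest for this vesicular transporter.

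Slc6a11, the astrocytic uptake carrier, gave 12.34, 12.18, 12.14, 12.03 and 11.94 on the ko/KO arrays, which include its highest and its lowest value. It was 12.22, 12.23, 12.11, 12.11 and 12.03 on the ko/WT arrays. The wt/KO arrays gave 12.07, 12.19, 12.21 and 12.13 and the wt/WT arrays 12.19, 12.04, 12.05 and 12.12. The 3 other groups lay inside the ko/KO range.

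Abat, the catabolic enzyme, had levels of 11.60, 11.34, 11.67, 11.49 and 11.46 on the ko/KO arrays and 11.41, 11.56, 11.57, 11.60 and 11.52 on the ko/WT arrays. It was 11.53, 11.59, 11.56 and 11.55 on the wt/KO arrays and 11.38, 11.35, 11.55 and 11.50 on the wt/WT arrays. The 3 lowest arrays, ko/KO 2, wt/WT 2 and wt/WT 1, are the 3 whose values had the smallest SD overall.

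**Figure D1:**
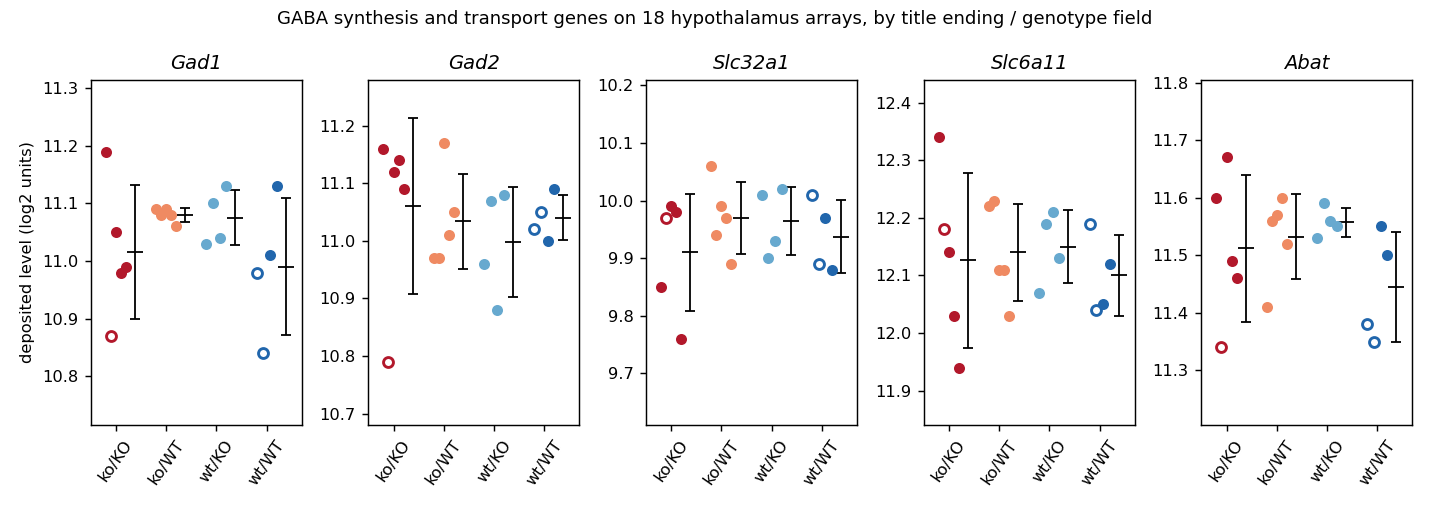
Deposited level (log2 units, y axis) of each gene on every array, by label group (title ending/genotype field, x axis). Points are arrays, open points are the 3 arrays of smallest SD (ko/KO 2, wt/WT 1 and wt/WT 2), and the black bar beside each group is its mean ± SD (n = 5, 5, 4 and 4). Every panel spans 0.6 log2 units, and all 4 groups overlap in every panel.

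By title ending the genes differed little between the arrays labelled ko (n = 10) and wt (n = 8). Gad1 averaged 11.05 ± 0.0853 (SD) with the ending ko and 11.03 ± 0.0956 with the ending wt, a log2 difference of 0.016 (SE 0.048, 95% interval -0.083 to 0.11). The difference was 0.028 for Gad2 (SE 0.051), -0.011 for Slc32a1 (SE 0.043), 0.0080 for Slc6a11 (SE 0.050) and 0.021 for Abat (SE 0.049). Over the 5 genes the 95% intervals reached from -0.10 to 0.13. Of the 5, 0 passed the threshold with limma at a Benjamini-Hochberg adjusted p of 0.05 (0% of all genes did), and 0 had an unadjusted p under 0.05, as 1.87% of all genes did in the higher and 2.76% in the lower direction. With a trended prior the count was also 0. The limma adjusted p ran from 0.921 for Gad2 to 0.98 for Slc6a11. The median of the 5 differences was 0.016, against 0.0030 over all genes and 0.023 without the dimmest 40% of genes.

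By genotype field (9 KO against 9 WT arrays) the differences were 0.0022 for Gad1 (SE 0.047), -0.0044 for Gad2 (SE 0.051), -0.021 for Slc32a1 (SE 0.043) and 0.014 for Slc6a11 (SE 0.050). Abat had the largest, 0.039 (SE 0.048, 95% interval -0.061 to 0.14, limma adjusted p = 0.827). Again 0 of 5 passed, beside 0% of all genes, and 0 of 5 had an unadjusted p under 0.05, beside 2.49% of all genes in the higher and 4.46% in the lower direction. The sign for Gad1 and Slc6a11 was negative after quantile normalization, at -0.035 and -0.011.

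Where both labels agree (5 ko/KO against 4 wt/WT arrays), Abat differed by 0.067 (SE 0.085, limma adjusted p = 0.754) and the other 4 genes by -0.028 to 0.026. Where they contradict each other (5 ko/WT against 4 wt/KO arrays), Gad2 differed by 0.037 (SE 0.065) and Abat by -0.026 (SE 0.055). In both sets 0 of 5 genes passed with limma, beside 0% of all genes, and 0 of 5 had an unadjusted p under 0.05. Over all genes that share was 2.90% higher and 8.22% lower on the agreeing arrays, and 1.75% higher and 0.993% lower on the contradicting ones. The intervals were wider here, reaching from -0.19 to 0.25 on the agreeing arrays. The agreeing set holds the 3 arrays of smallest SD, and without them the Gad1 difference was -0.018 in place of 0.026. The interaction of ending and field, the ending's difference among KO arrays minus that among WT arrays, was -0.15 for Gad1 and -0.13 for Abat, each with a limma adjusted p of 0.927.

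**Figure D2:**
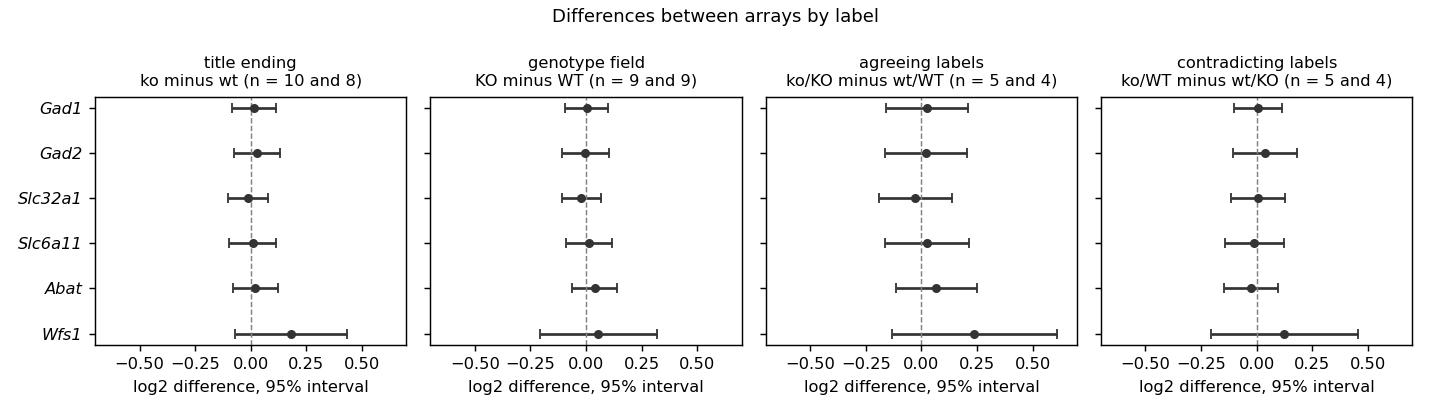
Log2 difference (x axis) for the 5 genes and for Wfs1 (y axis) in the 4 comparisons by label, with 95% intervals from limma and the number of arrays in each panel's title. Every interval includes 0, and Wfs1 has the widest ones.

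Other genes of GABA handling were followed in 4 lists, of which 16 genes were analysed here. Glul and the Slc38 carriers supply glutamine, Slc6a12 and Slc6a13 are further GABA carriers, Aldh5a1 completes GABA breakdown, and Pdxk makes the cofactor of the decarboxylases. Arrays with the ending ko had the higher mean for 14 of the 16 and the lower for 2. The differences had a median of 0.039 log2 units, against 0.0030 over all genes and 0.023 without the dimmest 40% of genes. The mean was higher for 10318 of all 19937 genes, and for 7991 of 11962 without the dimmest 40%. After quantile normalization 13 of the 16 were higher and 3 lower, and centred on array medians 14 and 2. Without the 3 arrays of smallest SD 15 were higher and 1 lower. Of the 16, 0 passed the limma threshold and 0 had an unadjusted p under 0.05, so these means do not differ beyond the spread between arrays. Several of the 16, such as Glul, Slc1a2 and Slc1a3, are expressed mainly by astrocytes. In the same comparison 11 of 12 astrocyte markers and 14 of 14 oligodendrocyte genes had the higher mean with ko, while 12 of 14 hypothalamic regional and 9 of 10 choroid plexus markers had the lower. The astrocyte and oligodendrocyte lists had mean levels of at least 9.31 on every array, the regional and choroid plexus lists of at most 7.81. As the shares above show, genes outside the dimmest 40% were more often higher with ko than all genes were. The part of signal level in these signs was not tested. After quantile normalization 9 of the 12 astrocyte markers were higher, and without the 3 arrays of smallest SD 9 of 12, beside 10 of 14 oligodendrocyte genes. The choroid plexus list had its highest mean, 7.78, on wt/WT 3, the array highest in Ttr, and its signs were not counted without that array. Of these lists 0 genes passed with limma, 3 regional and 1 choroid plexus marker had an unadjusted p under 0.05, and their part in the differences was not tested. By genotype field 9 of the 16 were higher and 7 lower (8 and 8 after quantile normalization, 11 and 5 centred on array medians), and again 0 passed. Over all genes 9403 of 19937 were higher by field, and 7480 of 11962 without the dimmest 40%. On the agreeing arrays 12 of the 16 were higher and 4 lower. The counts were 11 and 5 after quantile normalization, 14 and 2 centred on array medians, and 11 and 5 without the 3 arrays of smallest SD. Over all genes 9870 of 19937 were higher on these arrays, and 8188 of 11962 without the dimmest 40%. On the agreeing arrays 2 of 16 had an unadjusted p under 0.05, namely Slc6a13, with a difference of 0.39 (SE 0.18, limma adjusted p = 0.440), and Maob, a monoamine oxidase, with 0.24 (SE 0.11, limma adjusted p = 0.440). Over all genes 2.90% had such a p in the higher and 8.22% in the lower direction. Slc6a13 itself ran from 6.76 to 7.82, near the array medians of 7.10 to 7.19. Of 8 measured transcription factors of GABA neurons, such as Dlx1 and Dlx2, 7 had a lower mean on arrays with the ending ko (median -0.056), also after quantile normalization and centred on array medians. Their median levels ran from 6.215 for Lhx8 to 8.760 for Dlx1. Of the 10318 genes higher by ending, 7991 were outside the dimmest 40%, so dim genes were mostly not higher. The part of signal level in the signs of the 8 factors was not tested. By genotype field the 8 factors split into 4 higher and 4 lower, and on the agreeing arrays into 3 and 5. Where the labels contradict each other 2 were higher and 6 lower. In these 4 comparisons 0 of 8 passed. By ending 0 of 8 had an unadjusted limma p under 0.05, and 1 of 8 did in each of the other 3. Over all genes these shares, higher and lower, were 2.49% and 4.46% by field. On contradicting arrays they were 1.75% and 0.993%.

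Across the 18 arrays the 5 genes did not rise and fall as a set. Of their 10 pairs, 1 passed, Gad1 with Abat, at Pearson's r = 0.71 (permutation p = 0.0012, adjusted over the 10 pairs p = 0.012). Spearman's rho was 0.60 (permutation p = 0.0098, adjusted p = 0.098). In these data 1.15% of the 9967 other genes brighter than the median gene had as high an r with Gad1, and 1.36% had as high an r with Abat. The relation rested on few arrays. Without wt/WT 2 and ko/KO 2, the 2 farthest from the Gad1 median, r was 0.42 (permutation p = 0.106). Without the 3 arrays of smallest SD it was 0.27 (adjusted permutation p = 0.774), and after quantile normalization 0.59 (adjusted permutation p = 0.112).

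The array SD itself moved with both genes. Its r was 0.56 with Gad1 and 0.63 with Abat (permutation p = 0.016 and 0.0050, adjusted over the 5 genes 0.040 and 0.025). The rho values were 0.16 and 0.32. Without the 2 arrays farthest from the median SD, r was -0.053 for Gad1 and 0.29 for Abat. The part of the array SD in the relation of the 2 genes was measured only by these values and by the residuals from a line on it, where r between Gad1 and Abat was 0.55 (adjusted permutation p = 0.0922).

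A different pair came forward without those 3 arrays. Gad1 and Slc6a11, the synthetic enzyme of neurons and the uptake carrier of astrocytes, had r = 0.45 on 18 arrays (permutation p = 0.062, adjusted p = 0.212) and 0.74 on the remaining 15 (adjusted permutation p = 0.0148, rho 0.64 with adjusted p = 0.108). With those 3 arrays kept and only ko/KO 1, high in both genes, left out, r was 0.28 (adjusted permutation p = 0.454). Among the residuals from a line on the array SD it was 0.64 (adjusted permutation p = 0.0341). The settings without the 3 arrays and on residuals were added after the values were seen. Without the 2 arrays farthest from the Gad1 median r was 0.62 (permutation p = 0.0112).

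The 2 decarboxylase genes had an r of 0.43 (permutation p = 0.0704, adjusted p = 0.212), and 0.27 without ko/KO 2 and wt/WT 2. Slc32a1 had r values of 0.0064 with Gad1, -0.25 with Gad2, 0.23 with Slc6a11 and -0.021 with Abat, none with an adjusted permutation p under 0.60. Gad2 with Slc6a11 stood at -0.18, Gad2 with Abat at 0.42 and Slc6a11 with Abat at 0.18. Single arrays moved these values, to -0.45 for Gad2 with Slc6a11 and 0.06 for Slc6a11 with Abat without ko/KO 1, and to 0.18 for Gad2 with Abat and 0.19 for Gad1 with Gad2 without ko/KO 2. Slc32a1 with Slc6a11 was -0.13 without ko/KO 5 and 0.52 without ko/KO 1. At 18 arrays these values do not show that the genes vary independently.

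**Figure D3:**
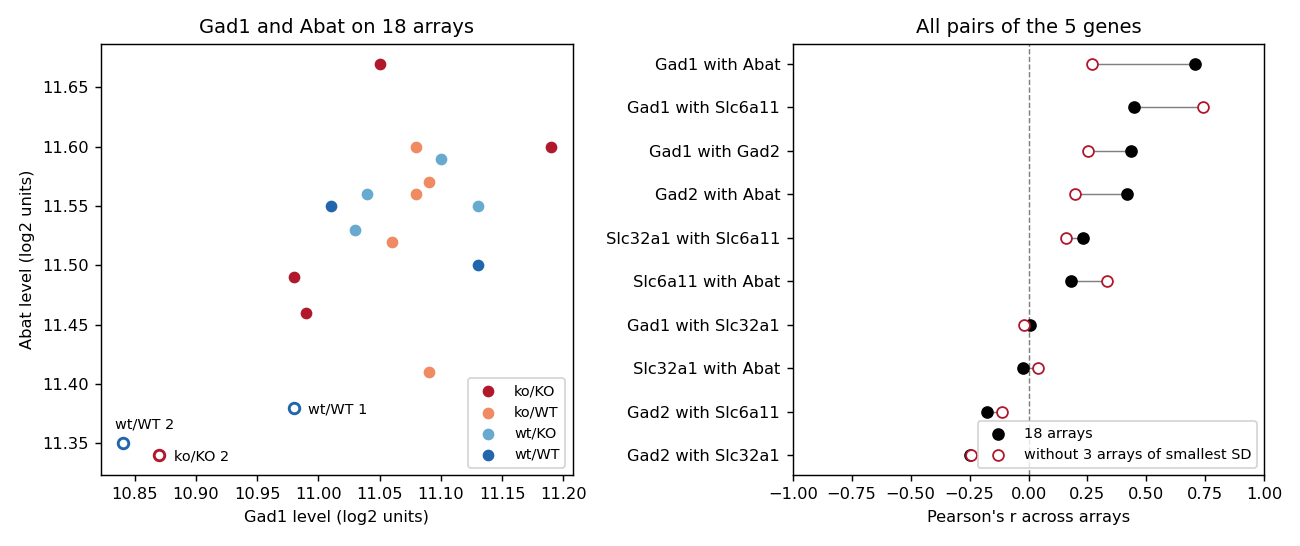
Left, Abat level against Gad1 level (log2 units), 1 point per array, coloured by label group, with the 3 arrays of smallest SD open and named. Right, Pearson's r of each pair of genes on 18 arrays (black) and without those 3 arrays (open red). Gad1 with Abat falls from 0.71 to 0.27 and Gad1 with Slc6a11 goes from 0.45 to 0.74.

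Gad1 and Abat were higher on arrays with higher levels of pan-neuronal and endothelial markers, and Gad1 also with higher oligodendrocyte and myelin genes. Of 95 relations of the 5 genes with the mean levels of 19 lists, 6 passed by Pearson's r and 0 by rho (lowest adjusted permutation p for rho 0.147). Gad1 had r = 0.84 with endothelial markers (8 genes), 0.82 with pan-neuronal markers (12 genes) and 0.76 with oligodendrocyte and myelin genes (14 genes). The adjusted permutation p values were 0.0038, 0.0038 and 0.0095, and the rho values 0.61, 0.64 and 0.70. Abat had r = 0.72 with pan-neuronal and 0.69 with endothelial markers (adjusted permutation p = 0.0157 and 0.0310).

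One array, wt/WT 2, was the lowest for several lists, though the highest for the transcription factors of GABA neurons (7.74). The endothelial, pan-neuronal, astrocyte and oligodendrocyte lists each had their lowest mean on wt/WT 2, at 7.99, 10.96, 9.88 and 9.31. Without the 2 arrays farthest from the list's median the r of Gad1 was 0.57 with endothelial, 0.55 with pan-neuronal and 0.55 with oligodendrocyte genes. Those of Abat were 0.47 with pan-neuronal and 0.35 with endothelial markers. On residuals from a line on the array SD 4 of 95 relations passed, those of Gad1 with endothelial (r = 0.77), pan-neuronal (0.72) and oligodendrocyte genes (0.72) and that of Slc32a1 with ependymal and tanycyte markers (0.69), with adjusted permutation p values of 0.0199, 0.0275, 0.0275 and 0.0318. Those of Abat were then 0.52 with pan-neuronal and 0.50 with endothelial markers (adjusted permutation p = 0.197 and 0.211). Without the 3 arrays of smallest SD 0 of 95 relations passed (lowest adjusted permutation p = 0.145). There the r of Gad1 was 0.59 with endothelial, 0.43 with pan-neuronal and 0.65 with oligodendrocyte genes, and that of Abat 0.16 and 0.37 with pan-neuronal and endothelial markers.

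For the transcription factors of GABA neurons r was -0.18 with Gad1, 0.19 with Gad2 and 0.25 with Slc32a1. For peptides of GABA neurons, such as Npy and Sst, the values were -0.21, 0.14 and -0.034. Among the GABA pathway lists, the 4 genes of breakdown and alternative synthesis had r = 0.64 with Gad1, 0.62 with Gad2 and 0.59 with Abat (adjusted permutation p = 0.0561, 0.0561 and 0.0616). The 8 of precursor supply had 0.61 with Gad1 and the 2 of cofactor and targeting 0.61 with Gad2 (adjusted permutation p = 0.0567 and 0.0561), so none passed. The level of Slc6a11, expressed mainly by astrocytes, had r = 0.017 with the 12 astrocyte markers, which were all above the array median on every array.

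Slc32a1 went with ependymal and tanycyte markers, at r = 0.655 (adjusted permutation p = 0.0446, rho 0.57, adjusted p for rho 0.196), and at 0.72 without the 2 arrays farthest from the list's median. Gad2 had r = -0.60 with the same list (adjusted permutation p = 0.0561). Of these 8 markers 3 were above the array median on every array, and their mean ran from 7.24 on wt/KO 2 to 7.54 on ko/KO 2. The r of Slc32a1 changed little, from 0.62 to 0.68, when single arrays were left out, and its adjusted permutation p then ran from 0.0302 to 0.0997, above 0.05 for 10 of the 18 arrays left out. These were wt/WT 1, wt/WT 2, wt/WT 4, wt/KO 2, ko/WT 1, ko/WT 3, ko/WT 4, ko/WT 5, ko/KO 1 and ko/KO 5. The part of these cells in the levels of the 5 genes was not tested.

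**Figure D4:**
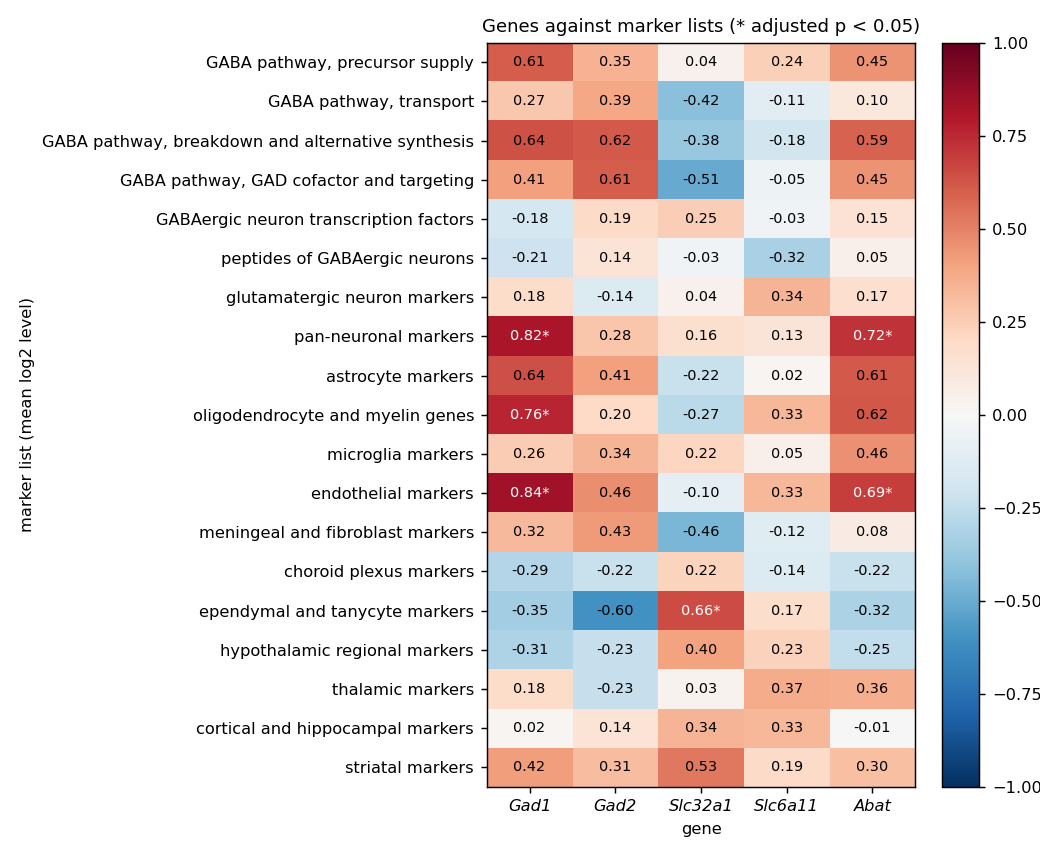
Pearson's r across 18 arrays between each gene (columns) and the mean log2 level of each list (rows), from -1 (blue) to 1 (red). Stars mark the 6 of 95 relations with an adjusted permutation p under 0.05, 5 of them in the Gad1 and Abat columns.

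Single genes of the pathway lists gave no call against the 5 genes. Of 80 relations, computed after the list values were seen, 18 had an unadjusted permutation p under 0.05 and 0 passed after adjustment. The closest was Gad1 with Aldh1a1, an aldehyde dehydrogenase that can make GABA by another route, at r = 0.71 (adjusted permutation p = 0.060). It was 0.33 without the 3 arrays of smallest SD. Aldh1a1 also varied more than the 5 genes, from 10.03 to 11.32. Slc32a1 had its lowest r, -0.64, with Zdhhc17, a palmitoyltransferase that acts on the Gad2 product (adjusted permutation p = 0.163).

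Over the 9967 other genes brighter than the median gene, those most like each of the 5 were found by Pearson's r over 18 arrays, as a description. For Gad1 the nearest were Clic4, a chloride intracellular channel protein (r = 0.87), Dis3l (0.83), Luzp1 (0.83), Atp13a5 (0.82) and Coch (0.81). Without the 3 arrays of smallest SD these values were 0.65, 0.52, 0.52, 0.54 and 0.62. For Abat they were Lasp1, an actin-binding protein (0.92), Ankrd34c (0.87), Dlst, a subunit of oxoglutarate dehydrogenase (0.87), Acsbg1 (0.86) and Atp6v1g2 (0.85). Lasp1 stood at 0.78 without those arrays and Acsbg1 at 0.58.

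The nearest genes of Slc32a1 and Slc6a11 held their values without those arrays. For Slc32a1 they were Gpx4, which reduces lipid peroxides, at r = 0.89 (0.93 without the 3 arrays), Mlycd at 0.88, Get4 at 0.86, Dtnbp1 at 0.86 and Rex1bd at 0.85. For Slc6a11 they were Sidt2, a lysosomal membrane protein, at 0.87 (0.87 without the 3 arrays), Tmem104 at 0.87, Atf6b, a relative of the stress sensor Atf6, at 0.86, Abcd4 at 0.85 and Tmem25 at 0.84. For Gad2 they were Ero1a, an oxidase of the endoplasmic reticulum, at 0.83 (0.75 without the 3 arrays), Sox6 at 0.82, Clmp at 0.80, Pdpk1 at 0.79 and Prkaa1 at 0.78. No gene was shared among these 5 sets, and none of the 5 genes was in the set of another.

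The level of Wfs1 fell into 2 clusters, 10 arrays from 7.86 to 8.07 and 8 arrays from 8.36 to 8.72, divided here at 8.2. The lower cluster held 4 arrays with the ending ko and 6 with wt, and the upper one 6 and 2. By genotype field they held 5 KO and 5 WT, and 4 KO and 4 WT. The division comes from the data and is no genotype label, so the sides are described with no test between them. Slc6a11 ran from 11.94 to 12.22 with a median of 12.090 below the split and from 12.03 to 12.34 with a median of 12.160 above it. Of the 8 upper arrays, 7 exceeded the median of the lower ones. Slc32a1 was the reverse, with medians of 9.985 below and 9.935 above, and 1 of the 8 upper arrays exceeded the lower median.

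The other differences of medians, above minus below, were 0.050 for Gad1, -0.030 for Gad2 and 0.050 for Abat. Both sides overlapped for each gene, with 13 to 16 of 18 arrays in the range that the sides share. The difference of 0.070 for Slc6a11 was the largest of the 5, and 31.1% of all genes had one as large. For the other genes 46.2% to 66.6% of all genes had one as large, so the 5 do not stand apart by this measure.

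Because Wfs1 forms clusters, its relation to the 5 genes was measured within each side only. Of 10 relations 1 passed. On the 8 upper arrays, in order of the Wfs1 level, Slc6a11 was 12.03 on ko/WT 5 (Wfs1 8.36), 12.14 on ko/KO 3 and 12.12 on wt/WT 4 (both 8.41) and 12.11 on ko/WT 4 (8.44). It was then 12.23 on ko/WT 2 (8.56), 12.21 on wt/KO 3 (8.61), 12.18 on ko/KO 2 (8.68) and 12.34 on ko/KO 1 (8.72). The 4 arrays with more Wfs1 were all higher in Slc6a11 than the 4 with less. Pearson's r was 0.87 (exact permutation p = 0.00322, adjusted p = 0.0322) and rho 0.83 (exact permutation p = 0.0167, adjusted p = 0.167). Without ko/KO 1 and ko/KO 2, the arrays farthest from the Wfs1 median, r was 0.90 (exact permutation p = 0.0167).

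The call did not hold under all settings. The adjusted exact permutation p was 0.0818 after quantile normalization, and above 0.05 without any 1 of ko/WT 5 (0.171), ko/KO 1 (0.147), wt/WT 4 (0.0853), ko/WT 4 (0.0794), ko/KO 3 (0.0754) and wt/KO 3 (0.0714). The r stayed between 0.80 and 0.88 in these cases. Of 9967 genes brighter than the median gene, 0.522% had as high an r with Wfs1 on these 8 arrays. On the 10 lower arrays, where Wfs1 spans a narrower range, r for Slc6a11 was 0.35 (permutation p = 0.314). Without ko/KO 5 and wt/WT 3, the lower arrays farthest from their Wfs1 median, it was -0.35 (exact permutation p = 0.409). Whether the relation differs between the sides was not tested.

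Gad2 had r = -0.38 with Wfs1 on the upper arrays (exact permutation p = 0.347). Without ko/KO 1, high in both genes, it was -0.93 (adjusted exact permutation p = 0.0238), so a single array decided this value. Slc32a1 had r = 0.60 on the lower arrays (permutation p = 0.0589, adjusted p = 0.294), and 0.28 without ko/KO 5 and wt/WT 3. Gad1 and Abat had r values between -0.31 and 0.057 on the 2 sides.

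Within the sides of the Wfs1 split Gad1 and Abat kept their relation to each other, at r = 0.70 on the 10 lower and 0.68 on the 8 upper arrays, and each side holds at least 1 of the arrays low in both. Other pairs had values far apart on the sides, with no test between them. Gad1 with Gad2 stood at 0.066 on the lower and 0.84 on the upper arrays, Gad1 with Slc32a1 at 0.41 and -0.66, and Slc32a1 with Slc6a11 at 0.67 and -0.27. As deviations from the means of the 4 label groups the r of Gad1 with Abat was 0.67 (adjusted permutation p = 0.0246).

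**Figure D5:**
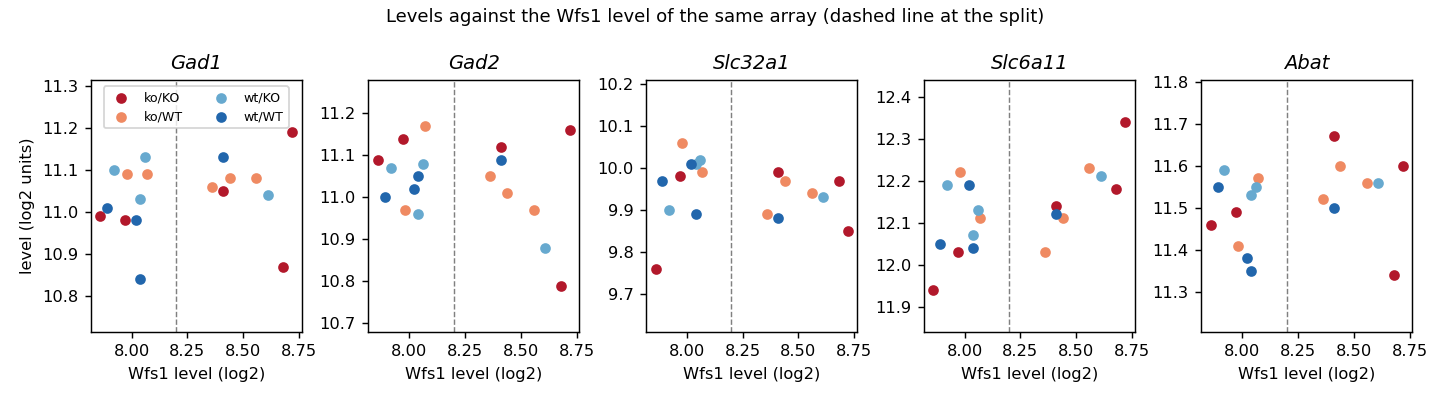
Level of each gene (y axis, log2 units) against the Wfs1 level of the same array (x axis, log2 units), coloured by label group, with the split at 8.2 dashed. Both sides overlap in every panel, and on the 8 arrays right of the line Slc6a11 is higher where Wfs1 is higher (r = 0.87).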

How the data were processed

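Total RNA of 18 hypothalamus samples was extracted with Trizol and biotin-labelled for whole-transcript arrays, per the labels' protocols. The authors deposited 1 value per probeset and array, taken as log2 from their range of 1.11 to 14.54. RMA and MAS5 appear in the submitters' processing notes, without versions or what each did. Scanner files were not analysed here, so detection calls and scan batches were not examined.

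Of 34760 probesets, 21640 carry 1 gene symbol in the platform annotation, 1321 several and 11799 none. Entrez identifiers of 21553 matched RefSeq GRCm38.p6, which changed 0 symbols. The brightest single-gene probeset stood for each gene.

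Comparisons by label used limma 3.58.1 in R 4.3.3 over all 19937 genes, without covariates, at a Benjamini-Hochberg adjusted p of 0.05. Correlations used two-sided permutation tests with 100000 resamples, or all orders below 10 arrays. The smallest p these resamples can give is 1e-05. Both were tested on simulated data. Genes were named as the 5 genes, the pathway and marker lists, the 5 nearest genes of each by r with predicted genes passed over, and Wfs1. The genes, lists and settings were chosen with earlier results of these data known.

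The alternatives were quantile normalization, centring on array medians, the mean of a gene's probesets, removal of the dimmest 40% of genes, a trended prior, and each array left out. Settings without the arrays low in Xist and high in Ttr, without the 3 arrays of smallest SD, and on residuals from a line on the array SD were added after seeing the data.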

Additional observations from a re-analysis of the deposited data

Results flagged for a closer look

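Gad2 on ko/KO 2 was 10.79, well below the other 4 ko/KO arrays, which lay between 11.09 and 11.16. The gap to its nearest neighbour was 0.811 of the group's range, above Dixon's 95% limit of 0.71 for 5 arrays. Of 20 groups tested, 1 such value was found, and chance gives about 1 in 20. On the same array Gad1 was 10.87 and Abat 11.34, both low in their group, while Slc32a1 was 9.97 and Slc6a11 12.18.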

How the results depend on the processing

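No paired analysis was made, because the labels pair no arrays. The titles carry further numbers, whose meaning the labels do not give. The last of them is lower on every array with the ending ko than on any with wt. It was not used to settle the genotype. The number of genes past the threshold was 0 in each comparison by label under each alternative run and without any 1 array. Each of the 5 genes has 1 probeset, so the mean over probesets changed none of their values. The pair count of 1 became 0 after quantile normalization and ranged from 0 to 1 without single arrays. It was 0 without ko/KO 2 or wt/WT 2. The 6 list relations became 3 after quantile normalization, 14 when centred on array medians, 2 as deviations from label group means and 0 without the 3 arrays of smallest SD. They ranged from 0 without wt/WT 2 to 11 without ko/KO 4 or wt/KO 4, with 10 without ko/WT 2. The single Wfs1 relation became 0 after quantile normalization and 0 without the arrays low in Xist and high in Ttr, and ranged from 0 to 1 without single arrays. The cause of these changes was not tested.

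Differences by label near 0 changed sign. After quantile normalization Gad1 was -3.8e-04 by ending, -0.0347 by field and -0.0286 on agreeing arrays, and Slc6a11 -0.00526, -0.0113 and -0.0154 in the same order and 0.00485 on contradicting arrays. Gad2 was then -0.0301 on agreeing arrays. Centred on array medians, Slc32a1 was 0.0010 by ending, 0.0035 on agreeing and -0.0015 on contradicting arrays, Gad1 -0.0015 on contradicting arrays, and Gad2 0.0133 by field. Slc32a1 with Abat had r = 0.09 there. Without the 3 arrays of smallest SD, Gad1 was -0.00556 by ending, -0.0134 by field and -0.0175 on agreeing arrays, Slc6a11 -5.6e-04 and Abat -0.00444 by ending, and by field Gad2 was 0.0254 and Wfs1 -0.0455. Gad1 with Slc32a1 had r = -0.02 there and -0.14 as deviations from label group means, and Slc32a1 with Abat 0.04 without those 3 arrays. Without the arrays low in Xist and high in Ttr, Slc6a11 was -1.6e-04 by ending.

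Without single arrays the ranges of values that changed sign were as follows. By ending they were -0.012 to 0.0353 for Gad1, -0.0246 to 0.00875 for Slc32a1, -0.015 to 0.0294 for Slc6a11 and -8.6e-04 to 0.041 for Abat. By field they were -0.0228 to 0.0238 for Gad1, -0.0204 to 0.0258 for Gad2, -0.0318 to 6.9e-04 for Slc32a1, -0.011 to 0.039 for Slc6a11 and -0.00292 to 0.105 for Wfs1. On agreeing arrays they were -0.024 to 0.0727 for Gad1, -0.005 to 0.0875 for Gad2, -0.0475 to 0.01 for Slc32a1 and -0.0275 to 0.0725 for Slc6a11. On contradicting arrays they were -0.01 to 0.0233 for Gad1, -0.00267 to 0.064 for Gad2, -0.0175 to 0.025 for Slc32a1, -0.0367 to 0.0175 for Slc6a11 and -0.0425 to 0.005 for Abat. The r ranged from -0.13 to 0.17 for Gad1 with Slc32a1, -0.13 to 0.52 for Slc32a1 with Slc6a11 and -0.15 to 0.1 for Slc32a1 with Abat. The number of arrays limits the precision, and signal over background was not analysed here.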
